A study of Mus musculus with 9 samples.

Results

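Solute carriers are membrane proteins that move amino acids, sugars, metals, vitamins, organic ions and metabolites across the plasma membrane and the membranes of organelles, and their genes carry symbols that begin with Slc and a family number. Members were chosen by their deposited signal, as the probe sets whose single gene symbol has that form and whose signal exceeded 100 on at least 3 of 9 arrays. Of the 12488 probe sets in the table, 185 had such a symbol, and 175 of 144 genes were left once Slc2a1, Slc2a4, Slc8a1, Slc25a4, Slc25a20, Slc27a1 and Slc27a2 had been set aside by the same rule. In all, 110 probe sets of 98 genes in 30 families were members, 65 probe sets were not bright enough, and 46 genes had no member. Among the members, 86 exceeded 100 on all 9 arrays. The signals just outside the limit, by the third highest array, were 93.2 for Slc15a2, 97.3 for Slc5a11 and 98.9 for Slc22a23, and those just inside were 103.7 for Slc22a2, 108 for Slc30a1 and 111 for Slc2a3. Of the members, 109 entered the test, since Slc30a1 was too dim. The set holds 3 proteins that share a carrier's symbol without carrying a solute themselves, Slc4a1ap, Slc9a3r1 and Slc9a3r2, which are adaptor and scaffold proteins.

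The arrays measured total RNA of both heart ventricles from 9 female mice aged 3 months, 1 array per mouse. All of the mice carried a transgene that overexpresses the receptor for insulin-like growth factor 1, IGF1R. In 3 mice it was joined by dominant negative PI3K (p110), the IGF1R-dnPI3K group. In 3 others it was joined by constitutively active PI3K (p110), the IGF1R-caPI3K group, and 3 had the receptor transgene alone, the IGF1R group. The labels also mention mice with no transgene and mice with a PI3K transgene alone; neither kind was analysed here, and every difference is relative to hearts that already overexpress the receptor. Which promoter drives the transgenes is a detail not given in the sources used here.

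Heart muscle takes up glucose, lactate, fatty acids, carnitine, taurine, creatine and amino acids through carriers of several families, and it exports acid and imports bicarbonate through others. Carriers of the SLC25 family lie mostly in the inner mitochondrial membrane, those of the SLC35 family mostly in the Golgi and endoplasmic reticulum, and the SLC30 and SLC39 families move zinc in opposite directions. PI3K, a lipid kinase downstream of the insulin and IGF1 receptors, is known for bringing glucose and amino acid carriers to the cell surface, a step that RNA levels do not record.

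The promoters of 3 members are shown here because Slc20a1 and Slc16a1 were the members that fell and held the E-box CACGTG, the binding motif of Myc and related factors, in the 250 bases before the gene's start, and because Slc7a7 passed in 2 comparisons. The sequences are RefSeq's on GRCm38.p6, read along the gene's strand 5′ to 3′, with CACGTG in capitals. Slc20a1 lies on the plus strand and its window, the first of 2 listed for the gene, is chr2:129198523-129198772. The window of Slc16a1, also on the plus strand, is chr3:104638414-104638663. Slc7a7 is on the minus strand, and its window, the first of 5 listed for the gene, is chr14:54417945-54418194.
Slc20a1: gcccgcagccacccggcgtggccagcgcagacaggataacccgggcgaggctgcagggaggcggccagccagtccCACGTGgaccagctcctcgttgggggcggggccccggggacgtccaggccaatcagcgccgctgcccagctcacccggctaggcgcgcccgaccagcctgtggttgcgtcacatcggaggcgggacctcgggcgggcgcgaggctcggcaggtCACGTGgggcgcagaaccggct
Slc16a1: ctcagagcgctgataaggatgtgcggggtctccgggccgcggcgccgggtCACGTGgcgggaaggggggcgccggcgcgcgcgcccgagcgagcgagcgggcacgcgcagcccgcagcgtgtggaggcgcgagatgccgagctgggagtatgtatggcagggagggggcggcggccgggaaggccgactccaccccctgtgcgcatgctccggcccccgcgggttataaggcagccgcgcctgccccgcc
Slc7a7: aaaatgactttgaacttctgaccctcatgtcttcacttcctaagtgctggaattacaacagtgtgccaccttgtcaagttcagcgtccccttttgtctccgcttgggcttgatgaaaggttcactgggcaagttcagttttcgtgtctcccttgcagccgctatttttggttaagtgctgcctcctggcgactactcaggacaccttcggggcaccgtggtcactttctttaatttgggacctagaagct
In the windows shown, Slc20a1 held CACGTG at 2 places, Slc16a1 at 1 and Slc7a7 at 0. The other window listed for Slc20a1 did not hold it. The motif reads the same on both strands. It occurred in 6.02% of all 32851 windows of this length in the table and in 8.62% of the 116 windows matched to members, which cover 80 genes. A gene can have several windows, and counted by gene 10 of the 80 held it. Of the genes that fell in IGF1R-dnPI3K against IGF1R mice, 10 had a window and 2 held it, and of the 5 that rose 0 held it. The forkhead element GTAAACA, sought on both strands, was in 3.17% of all windows and 0.862% of member windows, the amino acid response element TGATGNAAT in 0.816% and 0.862%, and TATAAA in 12.4% and 4.31%. A match describes the letters of the window and shows no binding.

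The arrays differed in ways that run with the groups. The 3' to 5' ratio of the CreX hybridisation control was 1.74 to 1.89 on the 6 arrays with a PI3K transgene and 1.05 to 1.26 with IGF1R alone, and that of Gapdh was 0.843 to 0.943 on those 6 and 0.747 to 0.818 with IGF1R alone. IGF1R-dnPI3K replicate 3 correlated least with the rest, at a mean Pearson r of 0.927 over probe sets, where the other 8 lay between 0.947 and 0.956. The summed signal of 7 cardiomyocyte markers, among them Myh6 and Tnni3, was 142375 to 170515 in IGF1R-dnPI3K, 130095 to 136345 in IGF1R-caPI3K and 121569 to 132029 in IGF1R ventricles. Of the 7, Myh6, Myl2 and Myl3 rose in IGF1R-dnPI3K against IGF1R mice, Ryr2 fell there (log2 difference -0.55, limma adjusted p = 0.017) and in IGF1R-caPI3K against IGF1R mice (-0.70, adjusted p = 0.0464), and the others did not pass. The part of these differences in the results below was not tested. In RNA of whole ventricles, fewer cells of a type and less RNA per cell cannot be told apart. Nothing in the labels says how the mice within a group are related, and p-values measure the spread between these 9 arrays.

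The comparison of IGF1R-dnPI3K with IGF1R mice asks what dominant negative PI3K adds to the receptor transgene. At an adjusted p under 0.05 (limma, adjusted over 7898 probe sets) 5 members were higher, which is 4.59% of the 109 tested against 5.7% of all probe sets, and 12 were lower, which is 11% against 7.8% of all. Leaving aside Slc19a1, whose membership rests on its high group, 4 rose. The members that rose were Slc19a1, Slc4a3, Slc35b2, Slc2a8 and Slc9a8. Those that fell were Slc7a7, Slc30a9, Slc20a1, Slc38a2, Slc25a44, Slc35e1, Slc16a1, Slc30a4, Slc44a2, Slc23a2, Slc39a7 and Slc11a2, each a different gene. Of these, Slc7a7 is a member through its IGF1R-caPI3K and IGF1R arrays alone. The median log2 difference of the members was -0.12, beside -0.09 for all probe sets tested. At an unadjusted p under 0.05 there were 32 members, 29.4% of those tested, against 32.2% of all probe sets. Of the 17 that passed, 4 of those higher and 10 of those lower exceeded 100 on all 9 arrays. The higher and lower counts depend on how arrays are scaled: quantile normalization gave 6 higher and 8 lower, and scaling to a common median 7 higher and 5 lower, while the median of all probe sets tested moved to -0.0048 and 0.075. Over all probe sets quantile normalization gave 491 higher and 510 lower, and the common median 832 higher and 333 lower. Slc25a44, Slc16a1, Slc44a2 and Slc11a2 did not pass with either of these, and Slc39a7, Slc23a2 and Slc38a2 did not pass with the common median. The direction of each of the 17 was the same in every alternative in which it was tested. Of 22 alternatives, Slc11a2 (102642_at) passed in 5, Slc38a2, Slc16a1, Slc44a2 and Slc25a44 in 7, and Slc20a1, Slc35b2, Slc9a8 and Slc23a2 in 9. Slc4a3 passed in 13, Slc2a8 and Slc39a7 in 14, Slc7a7 and Slc30a4 in 15, and Slc30a9 in 20. Slc35e1 (161355_f_at) passed in 12 of 21 and Slc19a1 (94419_at) in 16 of 19.

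**Figure D1:**
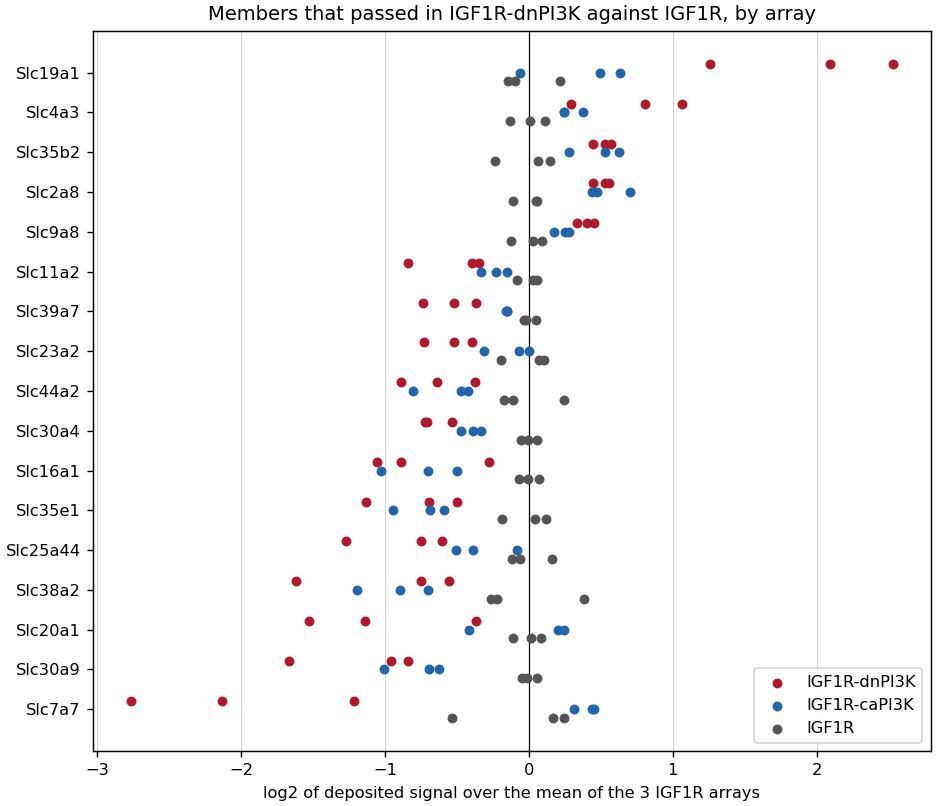
Signal of the 17 members that passed in IGF1R-dnPI3K against IGF1R mice, as log2 of each array's deposited signal over the mean of the 3 IGF1R arrays (x axis, 1 row per member, 1 point per array, with no floor applied). For each member the 3 IGF1R-dnPI3K points lie on one side of the 3 IGF1R points, and the IGF1R-caPI3K points lie with the IGF1R-dnPI3K points for Slc2a8, Slc35b2, Slc16a1 and Slc38a2, and with or above the IGF1R points for Slc7a7.

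Classes were set by family number. The class of amino acid, creatine and taurine carriers thus also holds the monoamine carriers Slc6a2 and Slc6a4. Of all probe sets tested 7.8% fell and 5.7% rose in IGF1R-dnPI3K against IGF1R mice, and in this class 2 of 22 fell and 0 rose. The first was Slc7a7, the light chain of an exchanger that swaps cationic for neutral amino acids and is known to be expressed in macrophages. Its signal was 28, 52.9 and 18.1 in IGF1R-dnPI3K mice, 153, 168 and 166.5 in IGF1R-caPI3K mice, and 84.8, 146 and 138 in IGF1R mice. It exceeded 100 on 5 arrays, none of them of IGF1R-dnPI3K mice, so it is a member only through the groups where it is high. The 3 IGF1R-dnPI3K arrays lay below the other 6, at the level of the 7 Y-linked probe sets of protein-coding genes, which in these female mice reached at most 63.9 with a median of 23.8. The log2 difference from IGF1R mice was -1.65 ± 0.34 (SE, adjusted p = 0.018), and since the low values lie near background its size is loose, running from -1.94 to -0.24 over 22 alternatives. The smallest came from a floor at a signal of 110.2, with which it did not pass (adjusted p = 0.24). Without IGF1R replicate 2 its adjusted p was 0.0631, and without IGF1R replicate 3 it was 0.0745.

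Macrophage markers were lower in the same arrays. The summed signal of the 8 markers was 3913 to 5857 in IGF1R-dnPI3K ventricles, 6926 to 7325 in IGF1R-caPI3K ventricles and 6364 to 7198 in IGF1R ventricles. Of the 7 tested, Csf1r, Lyz2 and Mrc1 fell in IGF1R-dnPI3K against IGF1R mice and 0 rose. None of the 8 was at 0, and Adgre1, not tested, was at 24.9 to 39.3 in IGF1R-dnPI3K mice against 113.7 to 165.5 in IGF1R mice. Slc11a1, a metal transporter of phagocytic vesicles, differed by -0.72 ± 0.38 (SE, adjusted p = 0.215) and did not pass. The part of macrophage RNA in the Slc7a7 result was not tested.

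Slc38a2 is a sodium-coupled carrier of small neutral amino acids that cells are known to induce when amino acids run short. It was at 2662, 2321 and 1272 in IGF1R-dnPI3K mice, 1708, 2101 and 2402 in IGF1R-caPI3K mice, and 3260.5, 3355 and 5111 in IGF1R mice. All 6 arrays with a PI3K transgene lay below the 3 without. Against IGF1R mice, IGF1R-dnPI3K mice differed by -0.94 ± 0.27 (SE, limma adjusted p = 0.0423). The same table gave -0.90 ± 0.27 for IGF1R-caPI3K mice, which did not pass (adjusted p = 0.123).

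The remaining 20 probe sets of the amino acid, creatine and taurine class did not pass. They ran from -1.15 for the glutamate carrier Slc1a2 to 0.58 for the neutral amino acid carrier Slc38a4. Slc7a5, a carrier of large neutral amino acids, was at 623, 512 and 588 in IGF1R-dnPI3K mice, 732.5, 709 and 631 in IGF1R-caPI3K mice and 633, 550.4 and 684 in IGF1R mice. Slc3a2, the heavy chain that Slc7a5 and Slc7a7 need to reach the cell surface, was at 1257, 821 and 1019 in IGF1R-dnPI3K mice, 999.9, 988 and 864 in IGF1R-caPI3K mice, and 929, 1033 and 884.5 in IGF1R mice. Both had groups that overlapped in IGF1R-dnPI3K against IGF1R mice, with log2 differences of -0.12 ± 0.14 (SE, adjusted p = 0.588) for Slc7a5 and 0.10 ± 0.16 (adjusted p = 0.681) for Slc3a2. The taurine carrier Slc6a6, on the brighter of its 2 probe sets, differed by -0.04 ± 0.13 (adjusted p = 0.868), and the creatine carrier Slc6a8 by -0.09 ± 0.19 (adjusted p = 0.768). The kidney and gut cystine carrier Slc7a9, at 77.4 to 141 in IGF1R-dnPI3K mice and 179.6 to 231.5 in IGF1R mice, missed the threshold at -0.95 ± 0.31 (adjusted p = 0.0655).

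Metal ion carriers had 4 of 18 tested probe sets lower in IGF1R-dnPI3K than in IGF1R mice and 0 higher, with a median of -0.33. Of these, 3 are zinc carriers of the SLC30 and SLC39 families, which had 12 tested probe sets, a median of -0.41 and 10 of 12 below 0. The median of all probe sets tested was -0.09, and 7.8% of them fell. With quantile normalization 9 of the 12 zinc probe sets lay below 0, with a median of -0.30, and 3 fell. Scaling to a common median left 8 below 0, with a median of -0.24 against 0.075 for all probe sets, and 2 that fell. The count was 1 with only the 2 groups in the fit and 0 with mouse number series blocked. In those fits 1.67% and 0.0633% of all probe sets passed in either direction.

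Slc30a9, a zinc carrier of the efflux family that is found at mitochondria, was the member with the lowest p. It was at 505, 548 and 308 in IGF1R-dnPI3K mice, 488, 635 and 605 in IGF1R-caPI3K mice, and 972, 949 and 1017 in IGF1R mice. The 3 IGF1R arrays stood above all 6 others. The difference between IGF1R-dnPI3K and IGF1R mice was -1.15 ± 0.20 (SE, limma adjusted p = 0.0136), and it passed in 20 of 22 alternatives, the exceptions being the fit without IGF1R replicate 3 (adjusted p = 0.0589) and that with mouse number series blocked (-0.87, adjusted p = 0.379). That of IGF1R-caPI3K from IGF1R mice was -0.77 ± 0.20 (adjusted p = 0.102).

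Slc30a4, which loads zinc into vesicles, was at 231, 260.3 and 229 in IGF1R-dnPI3K mice, 272, 299 and 288 in IGF1R-caPI3K mice, and 376.5, 392 and 363 in IGF1R mice. The 3 groups did not overlap with one another. Its difference between IGF1R-dnPI3K and IGF1R mice was -0.65 ± 0.14 (SE, adjusted p = 0.0181). Slc39a7, which releases zinc from the endoplasmic reticulum, was at 884, 686 and 795 in IGF1R-dnPI3K mice, 1022, 1026 and 1029.6 in IGF1R-caPI3K mice, and 1126, 1117 and 1185 in IGF1R mice. These groups did not overlap either, and the difference between IGF1R-dnPI3K and IGF1R mice was -0.54 ± 0.12 (SE, adjusted p = 0.0195). Without any 1 of the IGF1R replicates neither gene passed, with adjusted p of 0.0536, 0.0589 and 0.0629 for Slc30a4 and 0.0559, 0.0559 and 0.0746 for Slc39a7.

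The other zinc probe sets did not pass. Slc39a1, a zinc importer of the plasma membrane, was at 611, 688 and 796 in IGF1R-dnPI3K mice, 635, 765 and 605 in IGF1R-caPI3K mice and 947, 889 and 951 in IGF1R mice, and its difference between IGF1R-dnPI3K and IGF1R mice was -0.42 ± 0.14 (SE, adjusted p = 0.0657). The 2 probe sets of Slc30a5, a zinc carrier of the secretory pathway, differed, at 0.03 on 94470_i_at and -1.10 on 94471_r_at, neither of which has the plain suffix _at. Slc30a3 and Slc39a3 lay at -0.07 and 0.07.

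Slc11a2, the main carrier that brings ferrous iron into cells, was at 450.2, 437 and 319.9 in IGF1R-dnPI3K mice, 517, 489 and 455 in IGF1R-caPI3K mice, and 540.4, 595 and 584 in IGF1R mice on probe set 102642_at. It differed by -0.53 ± 0.15 between IGF1R-dnPI3K and IGF1R mice (SE, adjusted p = 0.0448). The other probe set, 104451_at, gave -0.25 ± 0.18 (adjusted p = 0.361), and in IGF1R-caPI3K against IGF1R mice the 2 probe sets gave -0.24 and -0.65, so that they differ in which comparison shows the larger change. The copper carrier Slc31a1 was measured by 2 probe sets, at 0.28 and 0.21, and neither passed.

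**Figure D2:**
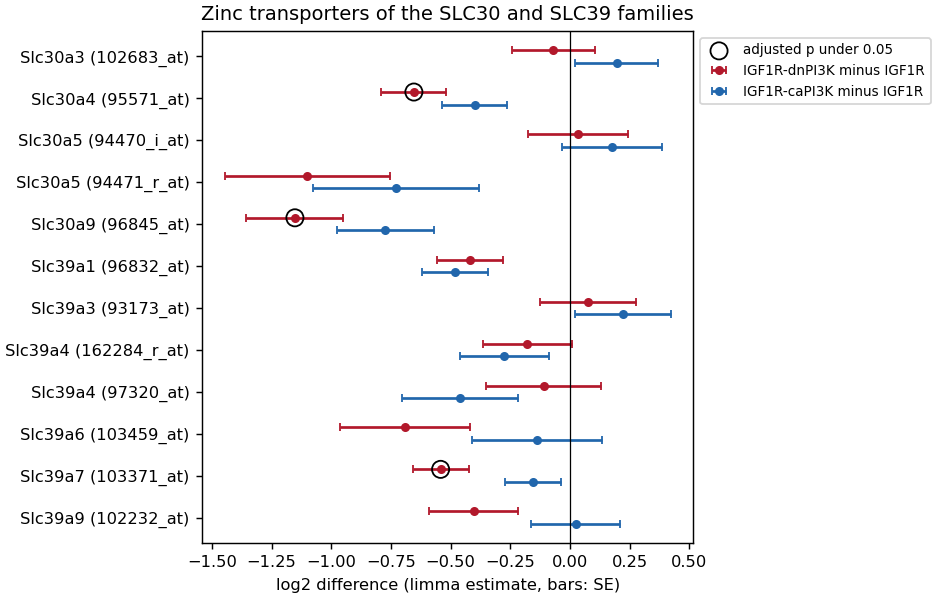
Log2 differences of the 12 tested zinc carrier probe sets (limma estimate, bars: SE) for IGF1R-dnPI3K minus IGF1R and IGF1R-caPI3K minus IGF1R, which share the 3 IGF1R arrays. Circles mark Slc30a4, Slc30a9 and Slc39a7, which passed in the first comparison, and 10 of the 12 estimates of that comparison lie below 0.

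Of the 5 tested probe sets of the SLC4 and SLC9 families, 2 rose in IGF1R-dnPI3K against IGF1R mice, Slc4a3 and Slc9a8, where 5.7% of all probe sets rose. With only the 2 groups in the fit 0 of the 5 rose. As reported 2 lay below 0, or 1 with quantile normalization and 0 with a common median. That last scaling moved the median of all probe sets from -0.09 to 0.075. Slc4a3, an exchanger of chloride for bicarbonate that is abundant in heart muscle, was at 4511, 6435 and 7677 in IGF1R-dnPI3K mice, 4761, 4356 and 4347 in IGF1R-caPI3K mice, and 3982, 3356 and 3689.8 in IGF1R mice. The IGF1R-dnPI3K arrays spread widely and all lay above the IGF1R arrays, by 0.73 ± 0.17 (SE, limma adjusted p = 0.0239). Slc9a8, a sodium proton exchanger of the Golgi, was at 897, 942 and 973.5 in IGF1R-dnPI3K mice, 805, 849 and 865.5 in IGF1R-caPI3K mice, and 652, 759 and 725 in IGF1R mice. These 3 groups did not overlap, and the difference of IGF1R-dnPI3K from IGF1R mice was 0.40 ± 0.11 (SE, adjusted p = 0.0404). In the class of sodium, proton, bicarbonate and chloride carriers 7 of 9 probe sets did not pass, from -0.67 ± 0.22 for the sodium potassium chloride cotransporter Slc12a2 (adjusted p = 0.0663) to 0.29 for the sodium bicarbonate cotransporter Slc4a4. Slc4a1, the anion exchanger of red blood cells, differed by -0.13 ± 0.23 (adjusted p = 0.722).

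The class of sugar and monocarboxylate carriers, which by family number also holds the vitamin carrier Slc5a6, had 1 higher and 1 lower among 8. Of all probe sets 5.7% were higher and 7.8% lower. Slc2a8, a glucose carrier of internal membranes, was at 596, 629 and 643.5 in IGF1R-dnPI3K mice, 709, 605 and 591 in IGF1R-caPI3K mice, and 454, 404 and 451 in IGF1R mice. Both groups with a PI3K transgene lay above the IGF1R group with no overlap. Its difference between IGF1R-dnPI3K and IGF1R mice was 0.51 ± 0.12 (SE, adjusted p = 0.0269).

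Slc16a1, the carrier of lactate and pyruvate, was at 385, 588 and 343 in IGF1R-dnPI3K mice, 350.1, 439.8 and 505.5 in IGF1R-caPI3K mice, and 711, 749 and 681 in IGF1R mice. Again the 3 IGF1R arrays stood apart from the other 6. The difference of IGF1R-dnPI3K from IGF1R mice was -0.74 ± 0.20 (SE, adjusted p = 0.0396). Bsg, the chaperone that carries Slc16a1 to the plasma membrane and is not itself a member, was higher in IGF1R-dnPI3K mice, by 0.68 ± 0.10 over IGF1R mice (SE, adjusted p = 0.00837).

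Slc20a1 brings phosphate into cells together with sodium. It was at 388, 228 and 174 in IGF1R-dnPI3K mice, 376, 594 and 578 in IGF1R-caPI3K mice, and 531, 465 and 507 in IGF1R mice. The first array of IGF1R-dnPI3K mice lay above the lowest of the IGF1R-caPI3K arrays, and all 3 lay below the IGF1R arrays. The difference between IGF1R-dnPI3K and IGF1R mice was -1.01 ± 0.27 (SE, adjusted p = 0.0368), and over 22 alternatives it ran from -1.33 to -0.16, the smallest with mouse number series blocked.

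**Figure D3:**
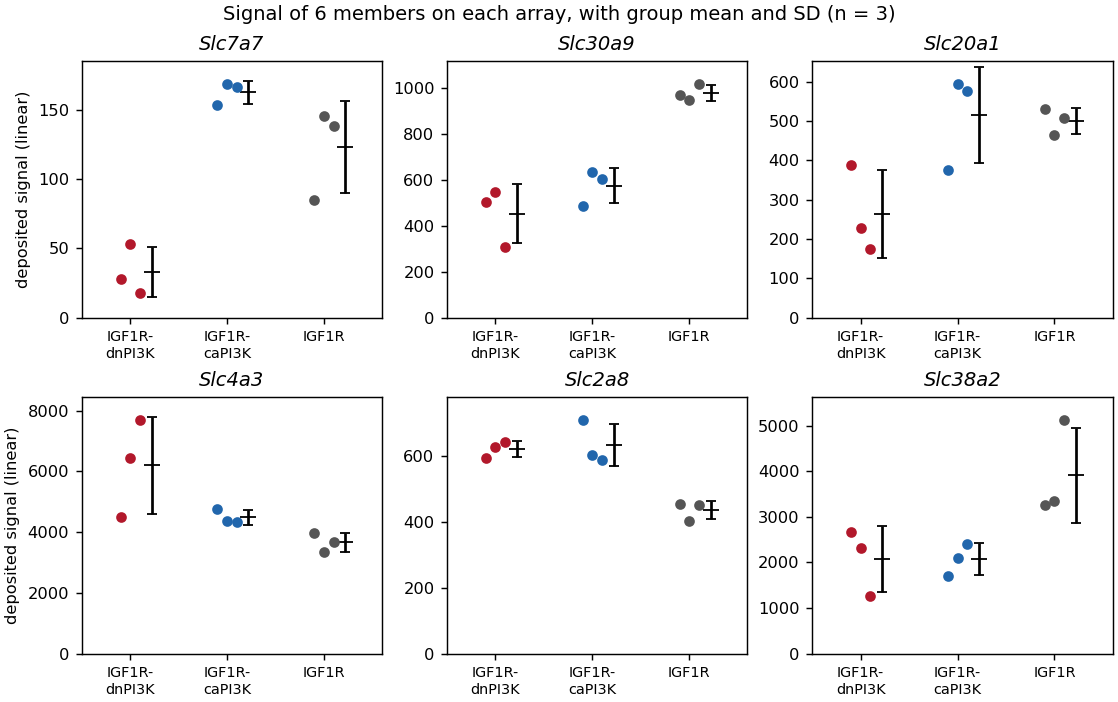
Deposited signal (y axis, linear, from 0) of Slc7a7, Slc30a9, Slc20a1, Slc4a3, Slc2a8 and Slc38a2 on each array, with group mean and SD (n = 3 each) for IGF1R-dnPI3K, IGF1R-caPI3K and IGF1R mice. For Slc30a9 and Slc38a2 both groups with a PI3K transgene lie below the IGF1R group, for Slc2a8 both lie above, and Slc7a7 is low in IGF1R-dnPI3K mice alone.

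Vitamin, choline and organic ion carriers had 1 higher and 2 lower among 17, where 5.7% of all probe sets were higher and 7.8% lower. Slc23a2, a sodium-coupled carrier of vitamin C, was at 684, 627 and 542.5 in IGF1R-dnPI3K mice, 901, 858 and 725 in IGF1R-caPI3K mice, and 947, 787 and 967 in IGF1R mice. The IGF1R-dnPI3K group lay below both others, by -0.54 ± 0.14 from IGF1R mice (SE, adjusted p = 0.0337). Slc44a2, a choline carrier, was at 563, 677 and 474 in IGF1R-dnPI3K mice, 503, 631 and 654 in IGF1R-caPI3K mice, and 1039.9, 811 and 779.7 in IGF1R mice. It differed by -0.62 ± 0.17 (SE, adjusted p = 0.0415) between IGF1R-dnPI3K and IGF1R mice, and the other 2 choline carrier members, Slc44a1 and Slc44a4, lay at -0.29 and -0.44 without passing. The carnitine carrier Slc22a5 differed by 0.24 ± 0.20 (adjusted p = 0.426).

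Slc19a1, the reduced folate carrier, was the member with the largest estimated rise, but it became a member through the IGF1R-dnPI3K group alone on probe set 94419_at, so this probe set had to differ and its test lends no support. It was at 342, 142 and 253 in IGF1R-dnPI3K mice, 56.8, 83.5 and 91.8 in IGF1R-caPI3K mice, and 53.6, 55.5 and 68.8 in IGF1R mice. The log2 difference of IGF1R-dnPI3K from IGF1R mice was 1.97 ± 0.37 (SE, adjusted p = 0.0146). The gene's second probe set, 162123_f_at, was at 233, 255 and 133.5 in IGF1R-dnPI3K mice, 290.3, 261 and 244 in IGF1R-caPI3K mice, and 163, 169.5 and 197.5 in IGF1R mice, a difference of 0.18 ± 0.24 between IGF1R-dnPI3K and IGF1R mice (adjusted p = 0.643). On that probe set the IGF1R-dnPI3K and IGF1R groups overlapped.

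The SLC25 family, mitochondrial carriers apart from the peroxisomal Slc25a17, counted 18 probe sets. Of these 1 fell and 0 rose, where 7.8% of all probe sets fell and 5.7% rose. The median of the 18 was -0.05, and 0.07 and 0.12 under the 2 other scalings, so its sign depended on the scaling. It lay above the median of all probe sets by 0.049, 0.076 and 0.049. As reported, 9 of the 18 lay below 0. Slc25a44, which carries branched-chain amino acids into mitochondria, was at 85.3, 135 and 122.5 in IGF1R-dnPI3K mice, 195, 157 and 145 in IGF1R-caPI3K mice, and 197, 231 and 190.3 in IGF1R mice. Its difference between IGF1R-dnPI3K and IGF1R mice was -0.87 ± 0.24 (SE, adjusted p = 0.0371). The glutathione carrier Slc25a39 came next, at 2599, 2456 and 3027 in IGF1R-dnPI3K mice against 2167, 2154 and 1893 in IGF1R mice, without overlap, and missed the threshold at 0.38 ± 0.11 (adjusted p = 0.0502). Slc25a11, the exchanger of oxoglutarate and malate, differed by 0.48 ± 0.19 (adjusted p = 0.106). Slc25a3, the phosphate carrier, differed by -1.62 ± 0.52 (adjusted p = 0.0624) on a probe set that fell to 32.6 on 1 array of IGF1R-dnPI3K mice. The 2 probe sets of the adenine nucleotide carrier Slc25a5 lay at -0.15 and 0.05. Slc25a4, the muscle form of the adenine nucleotide carrier and not a member, was higher in IGF1R-dnPI3K mice by 0.33 ± 0.09 (SE, adjusted p = 0.0336).

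Carriers of nucleosides and nucleotide sugars had 1 higher and 1 lower among 12, where 5.7% of all probe sets were higher and 7.8% lower. Slc35b2, which brings the sulfate donor PAPS into the Golgi, was at 542, 574 and 589 in IGF1R-dnPI3K mice, 572.5, 612 and 482 in IGF1R-caPI3K mice, and 415, 439 and 337 in IGF1R mice. The IGF1R arrays were the lowest 3, and the difference of IGF1R-dnPI3K from them was 0.53 ± 0.15 (SE, adjusted p = 0.0407). Slc35e1, a carrier of the same family without a settled substrate, was at 302, 264 and 195 in IGF1R-dnPI3K mice, 265, 284 and 223 in IGF1R-caPI3K mice, and 376, 442 and 466 in IGF1R mice on probe set 161355_f_at. That is -0.77 ± 0.19 (SE, adjusted p = 0.0281) between IGF1R-dnPI3K and IGF1R mice, while its other probe set, 104475_at, gave -0.36 ± 0.18 (adjusted p = 0.201). The suffix of 161355_f_at marks possible shared targets. The nucleoside carrier Slc29a1 lay at 0.09 on its brighter probe set.

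**Figure D4:**
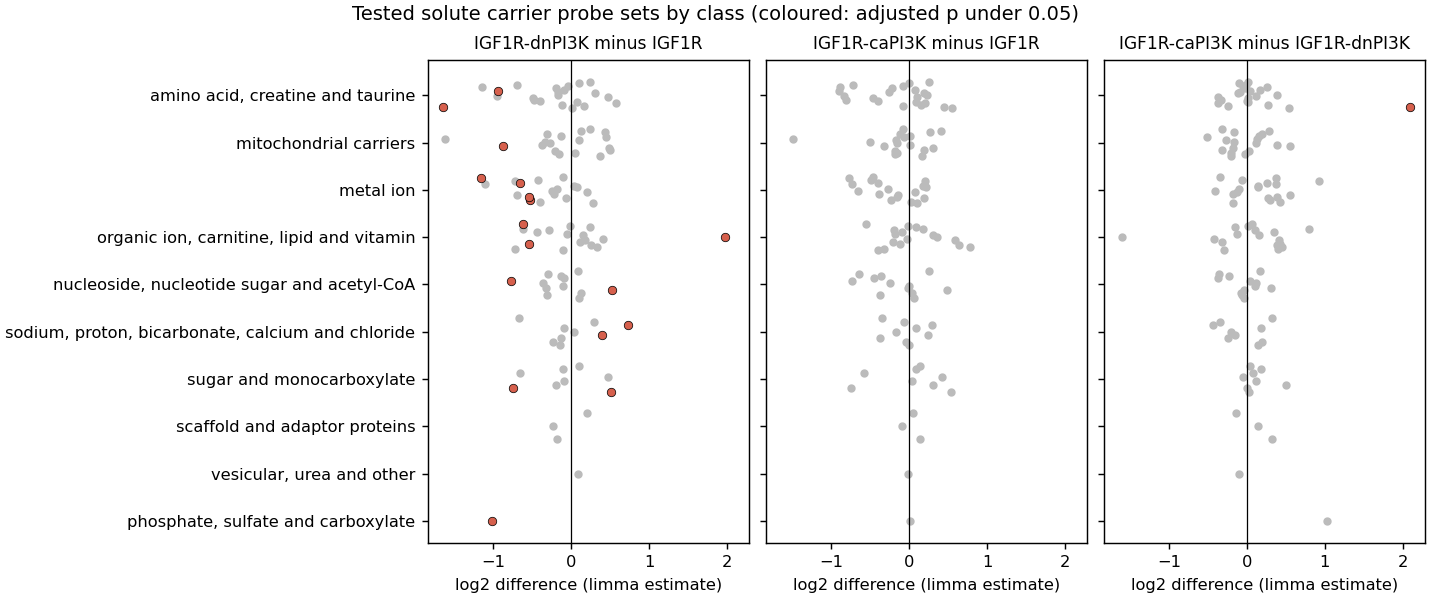
Log2 differences of the 109 tested members by carrier class (limma estimate, 1 point per probe set) in IGF1R-dnPI3K minus IGF1R, IGF1R-caPI3K minus IGF1R and IGF1R-caPI3K minus IGF1R-dnPI3K, with coloured points at an adjusted p under 0.05. The first panel holds 17 coloured points in 8 classes, the second 0, and the third 1, Slc7a7.

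The count for IGF1R-dnPI3K against IGF1R mice rests on the arrays included, as does that of all probe sets. As reported, 15.6% of members and 13.5% of all probe sets passed. Without IGF1R replicate 1, 2 or 3 it was 3, 2 and 0 members, and 2.69%, 2.56% and 0.986% of all. Without IGF1R-caPI3K replicate 1, 2 or 3 it was 12, 9 and 11 members, and 9.26%, 8.79% and 9.36% of all. Without IGF1R-dnPI3K replicate 2 or 3 it was 10 and 7 members, and 11.4% and 8.37% of all. Without IGF1R-dnPI3K replicate 1 it was 6 higher and 15 lower, and 23.7% of all. With the 2 groups alone 2 members passed, Slc19a1 on probe set 94419_at and Slc30a9, and 1.67% of all probe sets. Leaving aside Slc19a1, whose membership rests on its high group, Slc30a9 alone passed. The mouse numbers in the titles fall into series by their first 2 digits. With the series as a block 0 members passed, where 0.0633% of all probe sets did. With that block 14 members had an unadjusted p under 0.05, and the share of all probe sets under it was not computed. IGF1R-dnPI3K replicates 2 and 3 come from a series that holds no other mouse, so every blocked estimate for IGF1R-dnPI3K mice rests on replicate 1 alone, and for replicates 2 and 3 series and group cannot be told apart. Within IGF1R-dnPI3K mice, replicate 3 was the lowest array for 10 of the 12 members that fell. How often it was lowest among all probe sets that fell was not computed. Its median signal over the whole table, 160.6, was the lowest of any array. The median SD of log2 signal over the members was 0.26 in IGF1R-dnPI3K, 0.17 in IGF1R-caPI3K and 0.18 in IGF1R mice.

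Other genes of membrane transport were read from lists. Of 5 genes of the sodium potassium pump and its regulators, Fxyd1 rose by 0.69 and Fxyd5 fell by 0.83 on the log2 scale in IGF1R-dnPI3K against IGF1R mice. Of 14 ABC transporters tested, 2 rose, Abcb8 and Abcc9, and 1 fell, Abcd4, where 5.7% of all probe sets rose and 7.8% fell. Vdac2, a channel of the outer mitochondrial membrane, fell by 1.03 on the log2 scale, with 563.3 on IGF1R-dnPI3K replicate 3 and 1361.3 and 1550.6 on the other 2, against 1989.5 to 2377.9 in IGF1R mice. Fibroblast markers had a summed signal of 21876 to 25719 in IGF1R-dnPI3K, 32144 to 35760 in IGF1R-caPI3K and 29878 to 32545 in IGF1R ventricles, and 4 of 8 fell in IGF1R-dnPI3K against IGF1R mice. The skeletal muscle list was at 3582 to 5938 in IGF1R-dnPI3K, 17398 to 19068 in IGF1R-caPI3K and 12033 to 12917 in IGF1R ventricles, carried by Myl1 and Casq1. The part of these lists in the carrier results was not tested.

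The comparison of IGF1R-caPI3K with IGF1R mice asks the same of active PI3K, and shares its 3 IGF1R arrays with the one above. In limma's test 0 members passed in either direction, where 0.152% of all probe sets rose and 0.0633% fell. At an unadjusted p under 0.05 there were 21 members, 19.3% of those tested, against 18.4% of all probe sets. The members with the lowest p were Slc2a8 (0.54 ± 0.12, adjusted p = 0.0856), Slc35e1 on probe set 161355_f_at (-0.73 ± 0.19, adjusted p = 0.102), Slc30a9, Slc11a2 on probe set 104451_at (-0.65 ± 0.18, adjusted p = 0.107) and Slc16a1 (-0.74 ± 0.20, adjusted p = 0.11).

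Slc11a2 on that probe set was at 311, 272 and 309 in IGF1R-caPI3K mice against 476, 416 and 515 in IGF1R mice, with no overlap. The values of Slc2a8, Slc30a9 and Slc16a1 are given above, and in each the 2 groups were apart. When the fit held only these 2 groups, 9 members passed, 2 higher (Slc10a3 and Slc2a8) and 7 lower (Slc30a9, Slc16a1, Slc11a2, Slc35e1, Slc38a2, Slc25a3 and Slc39a1), which is 8.26% of members against 8.85% of all probe sets. Leaving out IGF1R-dnPI3K replicate 3 also gave 9, where 7.03% of all probe sets passed, and weighting the arrays gave 11, where 9.84% did.

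Side by side, the estimates for IGF1R-dnPI3K and IGF1R-caPI3K against IGF1R mice were -1.15 and -0.77 for Slc30a9, -0.74 and -0.74 for Slc16a1, 0.51 and 0.54 for Slc2a8, -1.01 and 0.01 for Slc20a1, -1.65 and 0.44 for Slc7a7, and -0.54 and -0.15 for Slc39a7. Both columns use the same IGF1R arrays, so a low or high IGF1R array moves both.

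Active and dominant negative PI3K were compared directly in IGF1R-caPI3K against IGF1R-dnPI3K mice, a comparison that does not use the IGF1R arrays other than for the error. In it 1 member was higher, against 0.734% of all probe sets, and 0 were lower, against 0.506% of all. The member was Slc7a7, higher by 2.09 ± 0.34 (SE, adjusted p = 0.0188), with 153, 168 and 166.5 in IGF1R-caPI3K mice against 28, 52.9 and 18.1 in IGF1R-dnPI3K mice. Its 3 IGF1R-caPI3K arrays alone meet the signal limit for members, and no IGF1R-dnPI3K array does. Membership thus rests on the groups where Slc7a7 is high, and its call is not independent of that choice. The IGF1R-dnPI3K values lie near background, so the size is loose and ran from 0.56 to 2.39 over 22 alternatives, the smallest with the floor at a signal of 110.2 (adjusted p = 0.0812). It passed in 14 of the 22 and not without IGF1R-caPI3K replicate 1, 2 or 3 (adjusted p = 0.0811, 0.0985 and 0.0874). Macrophage markers as a list were also higher in IGF1R-caPI3K mice, with the sums given above, though 0 of the 7 tested passed. Their part in the result was not tested.

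Next in order of p came Slc19a1 on probe set 94419_at (-1.61 ± 0.37, adjusted p = 0.0667), Slc20a1 (1.02 ± 0.27, adjusted p = 0.108), Slc39a7 (0.39 ± 0.12, adjusted p = 0.161) and Slc23a2 (0.42 ± 0.14, adjusted p = 0.199), and none of them passed. Probe set 94419_at is a member through its IGF1R-dnPI3K arrays alone, so its place in this order lends no support. The other probe set of Slc19a1, 162123_f_at, lay at 0.41. At an unadjusted p under 0.05 there were 13 members, 11.9% of those tested, against 15.4% of all probe sets. For Slc30a9, Slc2a8, Slc16a1 and Slc38a2 the differences were 0.38 ± 0.20, 0.02 ± 0.12, 0.00 ± 0.20 and 0.04 ± 0.27, which did not pass and do not show the groups to be alike. Of the 17 members that passed between IGF1R-dnPI3K and IGF1R mice, 1 also passed between IGF1R-caPI3K and IGF1R-dnPI3K mice. Ucp3, a mitochondrial carrier of the same protein family as SLC25 but named otherwise, was lower in IGF1R-caPI3K than in IGF1R-dnPI3K mice, with a log2 difference of -1.56 ± 0.32 (SE, adjusted p = 0.0427).

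**Figure D5:**
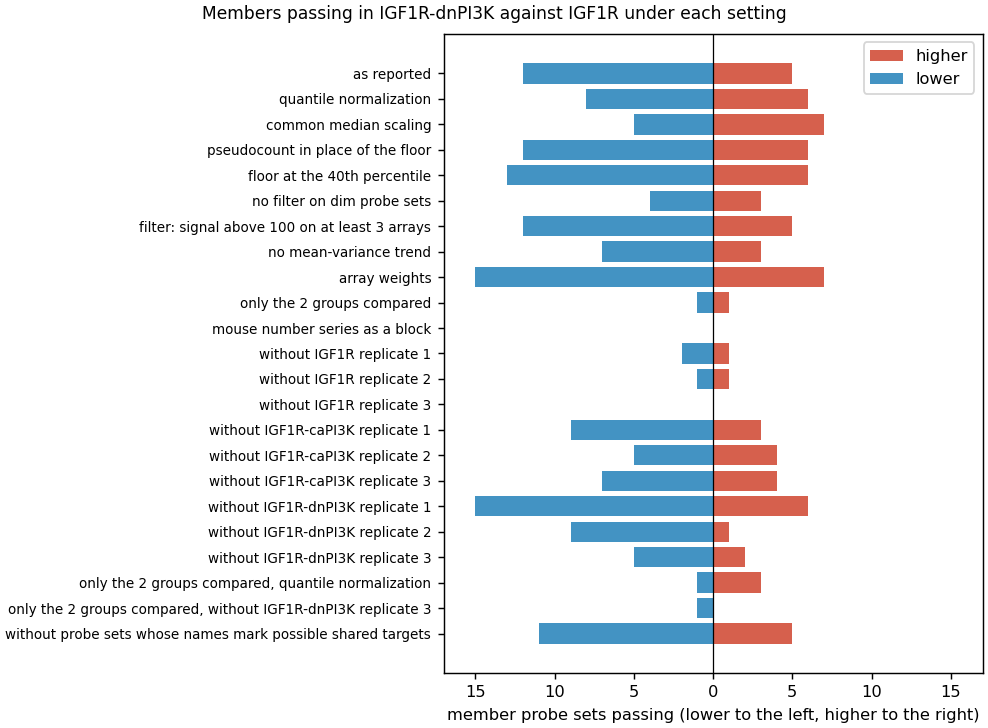
Number of members that passed in IGF1R-dnPI3K against IGF1R mice as reported and under 22 alternatives (x axis, lower to the left and higher to the right). The count is 17 as reported, 0 with mouse number series blocked or without IGF1R replicate 3, and at most 22, with array weights. Of all probe sets, 13.5% passed as reported, 0.0633% with the block, 0.986% without IGF1R replicate 3 and 18.4% with array weights.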

How the data were processed

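The authors deposited a linear intensity for each of 12488 probe sets on each array; 66 of the probe sets are controls. The values share a 2% trimmed mean of about 500.3 on each array. How these intensities were computed is not stated in the labels. Groups come from the sample titles, and replicates were numbered in deposit order. The number of arrays limits the precision, and the largest number of identical values in any pair of arrays was 37.

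Symbols came from the platform annotation: 10833 probe sets had 1 symbol, 396 several and 1193 none. All 110 members matched the RefSeq table by gene ID and 0 symbols changed.

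Control probe sets were left out. Values were raised to at least 32.4, which is the 20th percentile of the positive values, and taken to log2, and 0.404% of the members' values were at or below it. A probe set was tested if it exceeded its array's 40th percentile on 3 arrays or more, as 7898 did. All 9 arrays entered 1 linear model in limma 3.58.1 (R 4.3.3) with moderated variances that follow mean signal. Each pairwise contrast was adjusted by Benjamini-Hochberg over those 7898, and called at 0.05. The model was tested on simulated data with 200 changed probe sets.

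Named were, per comparison, the 10 largest changes each way among members that passed without overlap (with under 5, also the 5 with the lowest p), the 8 brightest, up to 3 per carrier class by the F test, those nearest the signal limit, genes whose probe sets disagree and a set of cardiac carriers; some are left out. Slc11a1, Slc31a1, Slc44a1, Slc44a4, Slc29a1, Slc39a1, Slc39a3, Slc30a5, Slc1a2, Slc38a4, Slc4a4 and Slc10a3 fall outside that rule and were chosen after their values were seen. Members, carrier classes and lists were chosen with earlier results of these data known. The alternatives were 19 planned, 9 of them leaving out an array, and 3 added after the data were seen.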

Additional observations from a re-analysis of the deposited data

How the results depend on the processing

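Of 22 alternatives, 3 were chosen after seeing the data: only the 2 groups compared with quantile normalization, the same 2 groups without IGF1R-dnPI3K replicate 3, and dropping probe sets with a suffix other than the plain _at. In IGF1R-dnPI3K against IGF1R mice, 17 members passed as reported, 7 with no filter on dim probe sets, 10 without a mean-variance trend, 2 with only the 2 groups compared, 0 with mouse number series blocked, 4 with the 2 groups and quantile normalization and 1 with the 2 groups without IGF1R-dnPI3K replicate 3. Leaving out 1 array at a time gave 0 to 21 members, and 0.986% to 23.7% of all probe sets. Of all probe sets 13.5% passed as reported, 3.12% with no filter, 8.32% without a trend and 1.67% with only the 2 groups. With the 2 groups it was 4.04% under quantile normalization and 2.04% without IGF1R-dnPI3K replicate 3. In IGF1R-caPI3K against IGF1R mice the count was 0 as reported, 11 with array weights, 9 with only the 2 groups, 11 with the 2 groups and quantile normalization, and 0 to 9 with 1 array left out. Of all probe sets 0.215% passed as reported, 9.84% with array weights, 8.85% with only the 2 groups and 8.23% with quantile normalization added. In IGF1R-caPI3K against IGF1R-dnPI3K mice it was 1 as reported, 0 with a floor at the 40th percentile, 3 with array weights, 0 with only the 2 groups, 0 with the block, 0 with both additions to the 2 groups, and 0 to 4 with 1 array left out. Of all probe sets in that comparison, 1.24% passed as reported, 4.41% with array weights, 0.165% with only the 2 groups and 0.101% with the block. The cause of these shifts was not tested. None of the values reversed direction among those that passed. Where 2 arrays were left in a group, its spread was taken from all groups. No paired analysis was possible by replicate number because these numbers follow deposit order. IGF1R-caPI3K and IGF1R mice share 2 mouse number series. With series as the block 0 members passed between them, where 0.0127% of all probe sets did. In that fit 24 members had an unadjusted p under 0.05, and the share of all probe sets under it was not computed. The blocked estimates for IGF1R-dnPI3K mice rest on replicate 1.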
